A study of Mus musculus with 6 samples.

Results

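Kupffer cells and other liver macrophages were followed through 10 marker transcripts in whole liver: Adgre1, Clec4f, Vsig4, Timd4, Cd5l, Cd163, Marco, Cd68, Trem2 and Gpnmb. The genes were taken by symbol as established markers of these cells, by a rule that uses no measured value, and all 10 were found among the 45777 genes of the deposited table. All 10 also passed the filter on low counts, which kept 17274 genes. The RNA came from the livers of 6 male C57BL/6 mice fed a high-fat diet (HFD), 3 littermate controls (LT) carrying the floxed Fpn allele on both chromosomes (Fpn fl/fl, with no Cre) and 3 Fpn-LKO mice with the same floxed alleles and an albumin-Cre transgene (Alb-Cre; Fpn fl/fl). Fpn is ferroportin, the iron exporter encoded by Slc40a1. The floxed allele was made in 129S mice and backcrossed to C57BL/6J, and the age at sampling is not given in the sources used here. Both groups therefore share the floxed allele and the diet, all 6 libraries carry the same batch label, and a normal-diet group was not analysed here. Albumin-Cre acts in hepatocytes, so by design the macrophages of both groups keep Fpn, and the comparison asks how macrophage transcripts stood in livers whose hepatocytes were to lose it.

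Kupffer cells are the resident macrophages of the liver sinusoids, where they take up bacteria, dying cells and aged red blood cells and return the iron of haem to the circulation. Embryo-derived resident cells carry Clec4f, Vsig4 and Timd4, whereas cells that enter from blood monocytes in fatty liver acquire Clec4f early and Timd4 late. A further state, the lipid-associated macrophage marked by Trem2 and Gpnmb, is known from fatty liver and adipose tissue. In bulk tissue, fewer cells of a type and less RNA per cell cannot be told apart.

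The 10 genes lie on 5 autosomes and the X chromosome of the GRCm38.p6 build, and no other annotated gene overlaps any of them. Clec4f (gene identifier 51811, chr6:83644542-83656116, minus strand), Gpnmb (93695, chr6:49036518-49058182, plus strand) and Cd163 (93671, chr6:124304636-124330529, plus strand) share chromosome 6. Adgre1 (13733, chr17:57358581-57483529) and Trem2 (83433, chr17:48346401-48352276) are both on the plus strand of chromosome 17, and Timd4 (276891, chr11:46810786-46844333, plus strand) and Cd68 (12514, chr11:69664213-69666170, minus strand) are on chromosome 11. Vsig4 (278180, chrX:96247201-96293438) and Marco (17167, chr1:120474538-120505024) are on the minus strand, and Cd5l (11801, chr3:87357881-87371074) is on the plus strand. RefSeq promoter sequences of GRCm38.p6, from 250 bases before to 50 bases after the start site, were found for 9 of the 10 genes, and Adgre1 was not matched.

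Promoters were searched on both strands for GAGGAA, the core bound by the macrophage factor PU.1, and for CACGTG, the E-box bound by MITF and TFE factors. GAGGAA was present in 5 of the 9 promoters, those of Vsig4, Cd5l, Marco, Cd68 and Trem2, against 28.3% of all 32851 promoters of the same length. CACGTG was present in none of the 9, against 7.15% of all promoters. The last G of CACGTG can be the first of GAGGAA, so the motifs can share a base. The following 5 promoters are shown 5′ to 3′ on the gene's strand because the first 4 belong to transcripts that moved together across the livers and Gpnmb is the marker whose groups did not overlap. Capitals mark GAGGAA or its reverse complement TTCCTC.
Clec4f (chr6:83656067-83656366, minus strand): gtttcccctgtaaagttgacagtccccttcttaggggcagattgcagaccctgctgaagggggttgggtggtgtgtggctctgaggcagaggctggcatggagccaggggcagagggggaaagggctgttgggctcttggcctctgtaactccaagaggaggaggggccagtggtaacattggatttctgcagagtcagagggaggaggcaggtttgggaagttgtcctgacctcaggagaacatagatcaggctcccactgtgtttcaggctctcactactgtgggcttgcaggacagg
Vsig4 (chrX:96293389-96293688, minus strand): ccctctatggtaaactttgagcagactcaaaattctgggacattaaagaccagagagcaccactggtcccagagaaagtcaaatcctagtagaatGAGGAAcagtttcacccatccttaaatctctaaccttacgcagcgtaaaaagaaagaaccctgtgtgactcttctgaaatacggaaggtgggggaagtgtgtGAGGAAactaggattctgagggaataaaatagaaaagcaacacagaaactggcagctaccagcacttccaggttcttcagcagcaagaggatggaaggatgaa
Timd4 (chr11:46810549-46810848, plus strand): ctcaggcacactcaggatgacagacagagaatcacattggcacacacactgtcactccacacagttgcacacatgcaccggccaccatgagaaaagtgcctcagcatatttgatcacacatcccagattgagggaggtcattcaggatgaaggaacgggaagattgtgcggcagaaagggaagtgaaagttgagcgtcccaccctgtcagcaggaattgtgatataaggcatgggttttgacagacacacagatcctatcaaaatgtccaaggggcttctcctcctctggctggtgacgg
Cd5l (chr3:87357631-87357930, plus strand): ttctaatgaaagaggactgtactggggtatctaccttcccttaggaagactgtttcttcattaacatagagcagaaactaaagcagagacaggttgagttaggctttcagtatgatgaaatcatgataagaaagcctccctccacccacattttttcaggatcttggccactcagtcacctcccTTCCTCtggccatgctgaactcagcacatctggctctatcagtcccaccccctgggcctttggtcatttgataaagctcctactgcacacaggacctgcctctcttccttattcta
Gpnmb (chr6:49036268-49036567, plus strand): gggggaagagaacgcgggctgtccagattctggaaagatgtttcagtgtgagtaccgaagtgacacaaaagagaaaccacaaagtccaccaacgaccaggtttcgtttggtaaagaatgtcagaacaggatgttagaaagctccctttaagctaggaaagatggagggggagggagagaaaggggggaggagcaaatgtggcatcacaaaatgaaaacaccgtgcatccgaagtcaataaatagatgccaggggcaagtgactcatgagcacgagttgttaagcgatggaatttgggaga
The Vsig4 promoter holds the motif at both -155 and -53 from the start site, each on the gene's strand, and the Cd5l promoter holds it at -66 on the opposite strand. The Clec4f, Timd4 and Gpnmb promoters hold neither motif, which says only that these letters are not in this window.

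Total counts ranged from 43086184 to 47778683 per library, and the 10 markers together took between 0.0212% and 0.0445% of them. Levels are given below as CPM, read counts scaled to library size with TMM factors, always in the order of replicates 1, 2 and 3. Slc40a1, the targeted gene, had 154, 180.3 and 126 CPM in LT livers against 143, 143 and 176 CPM in those labelled Fpn-LKO. The groups overlapped, and the log2 fold change was 0.0073 (SE 0.16, n = 3 per group), with an adjusted p of 0.995 in the quasi-likelihood (QL) test of edgeR, Benjamini-Hochberg adjusted. The count of this gene therefore does not separate the labels, and within these 6 libraries every direction below rests on the labels. Outside these libraries, the paper reports loss of FPN in hepatocytes of Fpn-LKO mice, shown by genotyping, in isolated hepatocytes and by immunostaining. The labels do not say which part of the transcript is floxed.

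No marker passed the test between the genotypes. The QL test of edgeR, with p-values adjusted over the 17274 genes, left 0 of the 10 markers with an adjusted p under 0.05, against 0.0232% of all genes, which is 4 genes. DESeq2 and edgeR's exactTest also gave 0 markers past this threshold. At an unadjusted p under 0.05, 1 marker was higher in Fpn-LKO and 0 were lower, against 4.80% of all genes, 2.62% higher and 2.19% lower. That marker was Gpnmb, which was also the 1 marker whose groups did not overlap, against 10.6% of all genes, 5.25% higher and 5.34% lower. By DESeq2, by edgeR's exactTest and with the replicate number as a block, Gpnmb was higher and Cd163 lower at an unadjusted p under 0.05. The shares of all genes higher and lower were then 3.04% and 2.18% by DESeq2, 2.55% and 2.04% by exactTest and 2.77% and 2.15% with the block. The fitted log2 fold change was above 0 for 6 markers and below 0 for 4, with a median of 0.11 beside -0.0040 over all genes, of which 49.4% were above 0.

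**Figure D1:**
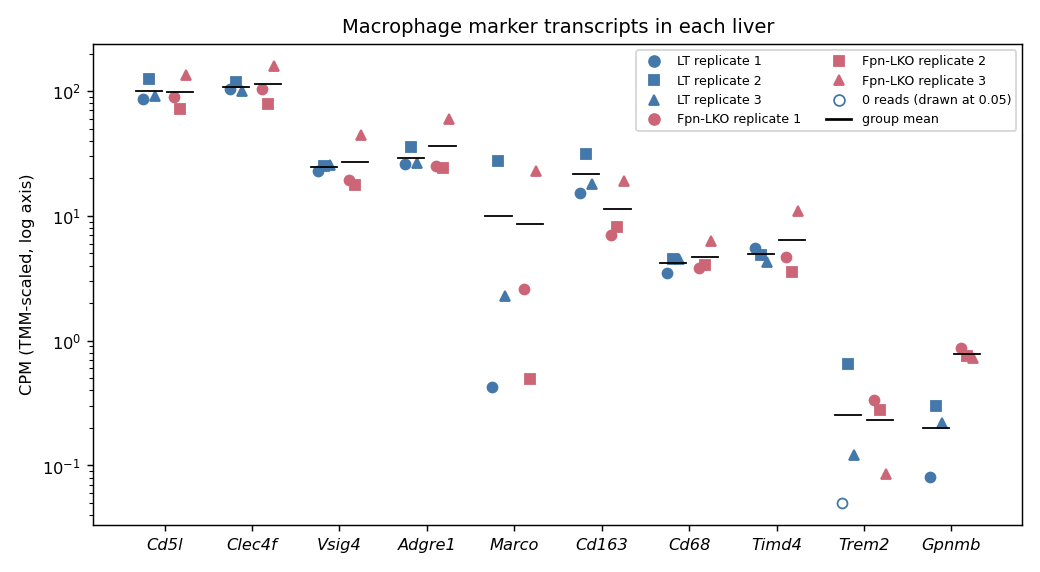
CPM (log axis) of each marker, ordered by level per transcript length, in LT (blue) and Fpn-LKO (red) livers, with 1 point per library, a symbol for each replicate and a bar at the group mean. The 3 Gpnmb points of Fpn-LKO, from 0.733 to 0.881 CPM, lie above the 3 of LT, from 0.0803 to 0.300, and the Marco points of both groups spread from under 3 to over 20 CPM.

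None of the 5 transcripts most used to identify resident Kupffer cells passed the test between the genotypes. Clec4f, a C-type lectin used as the most specific Kupffer cell marker of the mouse, had 104.0, 119 and 101 CPM in LT livers against 104, 78.9 and 159 CPM in Fpn-LKO. Fpn-LKO livers thus held both the lowest and the highest value. Mean levels were 108 ± 9.72 and 114 ± 41.1 CPM (SD, n = 3 each). The log2 fold change of 0.081 had a 95% interval from -0.48 to 0.65 (adjusted p = 0.995, edgeR QL test, Benjamini-Hochberg adjusted).

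Vsig4, the complement receptor with which Kupffer cells capture circulating bacteria, had 23.0, 25 and 25.6 CPM in LT livers against 19.3, 17.8 and 44.1 CPM in Fpn-LKO. Replicates 1 and 2 of Fpn-LKO were below every LT library and replicate 3 was above every one. The log2 fold change was 0.14 (SE 0.33, 95% interval -0.63 to 0.91), and the SD within Fpn-LKO was 14.8 CPM against 1.33 CPM in LT. Timd4, the phosphatidylserine receptor of long-resident Kupffer cells, had 5.56, 4.87 and 4.30 CPM in LT livers against 4.68, 3.58 and 10.9 CPM in Fpn-LKO. Its groups overlapped, with Fpn-LKO again holding both extremes, and the log2 fold change was 0.37 (SE 0.40, 95% interval -0.56 to 1.31).

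Adgre1, which encodes the macrophage surface protein F4/80, had 26.1, 35.3 and 26.5 CPM in LT livers against 25.1, 24.1 and 59.8 CPM in Fpn-LKO. The replicate 3 value of Fpn-LKO was the only one outside the range from 24.1 to 35.3 CPM, and the log2 fold change was 0.31 (SE 0.35, 95% interval -0.51 to 1.14). Cd5l, a secreted scavenger receptor protein also called AIM, had 86.4, 125 and 92.1 CPM in LT livers against 89.4, 72.2 and 135 CPM in Fpn-LKO. The highest value of each group stood well above the other two of that group, and the means of 101 ± 20.7 and 98.9 ± 32.5 CPM (SD, 3 livers each) gave a log2 fold change of -0.031 (SE 0.25, 95% interval -0.61 to 0.55). For these 5 transcripts the intervals reach to both sides of 0, so neither a difference nor equal expression is shown.

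Cd163 and Marco, both scavenger receptors, had lower mean levels in Fpn-LKO, and neither passed the test. Cd163, the receptor that clears haemoglobin bound to haptoglobin, had 15.2, 31.1 and 18.1 CPM in LT livers against 7.04, 8.10 and 18.9 CPM in Fpn-LKO. Replicates 1 and 2 of Fpn-LKO were below all LT libraries, whereas replicate 3 was above LT replicates 1 and 3, so the groups overlapped. Mean levels were 21.5 ± 8.48 and 11.4 ± 6.57 CPM (SD, n = 3 each). The log2 fold change was -0.92 (SE 0.42, 95% interval -1.91 to 0.066), with an unadjusted p of 0.0634 and an adjusted p of 0.982 in the edgeR QL test, Benjamini-Hochberg adjusted. The unadjusted p was 0.0203 by DESeq2 and 0.0364 by edgeR's exactTest.

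Marco, a scavenger receptor for bacteria found on periportal Kupffer cells and in the marginal zone of the spleen, varied most of the 10 markers between livers of the same genotype. It had 0.422, 27.4 and 2.3 CPM in LT livers against 2.58, 0.493 and 22.9 CPM in Fpn-LKO, from 21 to 1186 reads. Each group held 1 high library, LT replicate 2 and Fpn-LKO replicate 3, and the highest level was 64.9-fold the lowest. The within-group SD of log2 CPM, 2.84, was larger than that of 99.95% of the genes tested. The log2 fold change of -0.21 accordingly had a 95% interval from -3.78 to 3.35.

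Cd68, a lysosomal glycoprotein of all macrophages, had 3.50, 4.48 and 4.54 CPM in LT livers against 3.82, 4.01 and 6.34 CPM in Fpn-LKO. It was the least variable of the 10, with a within-group SD of log2 CPM of 0.32, and its groups overlapped. The log2 fold change was 0.18 (SE 0.26, 95% interval -0.42 to 0.78).

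Both markers of lipid-associated macrophages had few reads. Trem2, the lipid-sensing receptor of these cells, had 0, 28 and 5 reads in LT and 16, 13 and 4 reads in Fpn-LKO. That corresponded to 0, 0.647 and 0.121 CPM in LT livers against 0.335, 0.278 and 0.0862 CPM in Fpn-LKO, where a count of 0 in LT replicate 1 allows up to 0.0602 CPM (3 reads). The lowest and the highest values were both in LT, and the log2 fold change of -0.12 had a 95% interval from -2.82 to 2.59.

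Gpnmb, a lysosomal membrane glycoprotein of lipid-laden macrophages, was the 1 marker of 10 whose groups did not overlap, beside 10.6% of all genes. It had 4, 13 and 9 reads in LT and 42, 35 and 34 reads in Fpn-LKO, which corresponded to 0.0803, 0.300 and 0.218 CPM and to 0.881, 0.750 and 0.733 CPM. All 3 Fpn-LKO libraries were above all 3 LT libraries. The closest pair by level, LT replicate 2 and Fpn-LKO replicate 3, had exact Poisson 95% intervals of 6.92 to 22.2 and 23.5 to 47.5 reads, which cover counting error only. Mean levels were 0.199 ± 0.111 and 0.788 ± 0.0809 CPM (SD, 3 livers each), a 3.95-fold difference. The log2 fold change was 1.98 (SE 0.51, 95% interval 0.78 to 3.18), with an unadjusted p of 0.00547 and an adjusted p of 0.823 in the edgeR QL test, Benjamini-Hochberg adjusted, so it did not pass over all genes. Over the alternatives the adjusted p of Gpnmb ranged from 0.0628 by edgeR's exactTest to 1.00. The exact permutation test of its CPM gave p = 0.1 (two-sided), the smallest that 3 against 3 allows. Gpnmb is also known from cells other than macrophages, such as melanocytes and osteoblasts, and which cells gave these reads was not tested.

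Much of the spread of the markers lay in 1 liver. Fpn-LKO replicate 3 had the highest level of 6 markers, LT replicate 2 of 3 and Fpn-LKO replicate 1 of 1, whereas Fpn-LKO replicate 2 had the lowest level of 5. For Adgre1, Clec4f, Vsig4, Timd4, Cd5l and Cd68, Fpn-LKO replicate 3 lay above all 5 other libraries. Its level was 2.63-fold the mean of the other two Fpn-LKO libraries for Timd4, 2.43-fold for Adgre1, 2.38-fold for Vsig4 and 1.74-fold for Clec4f. It was 14.9-fold for Marco and 2.5-fold for Cd163, but 0.899-fold for Gpnmb and 0.281-fold for Trem2. The summed level of the 10 markers was 264, 373 and 275 CPM in LT livers against 258, 210.2 and 458 CPM in Fpn-LKO.

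Every library was left out in turn, and those named here were picked after their values were seen. Leaving out Fpn-LKO replicate 3, the highest library for 6 markers, lowers their Fpn-LKO means in any case. The fits are therefore given as a description of how far single libraries carry the values. Without Fpn-LKO replicate 3, 8 of the 10 markers had a log2 fold change below 0, instead of 4, beside 51.3% of all genes, and their median was -0.25. In that fit the log2 fold change was -1.50 for Cd163 (unadjusted p = 0.00322, adjusted p = 0.807), in the edgeR QL test, Benjamini-Hochberg adjusted. By the same test it was -0.40 for Vsig4 (unadjusted p = 0.0145) and 2.03 for Gpnmb (unadjusted p = 0.0141), against 2.00% of all genes lower and 2.69% higher at an unadjusted p under 0.05. Adgre1, Clec4f, Timd4, Cd5l and Cd68 stood at -0.25, -0.24, -0.25, -0.32 and -0.091, and all of these except Cd5l had been above 0 with all libraries. Marco moved to -2.71 without Fpn-LKO replicate 3 and to 2.69 without LT replicate 2, its other high library. Trem2 moved to 1.98 without LT replicate 2, which held 28 of its LT reads against 5 and 0 in the others, and Cd163 to -0.55.

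**Figure D2:**
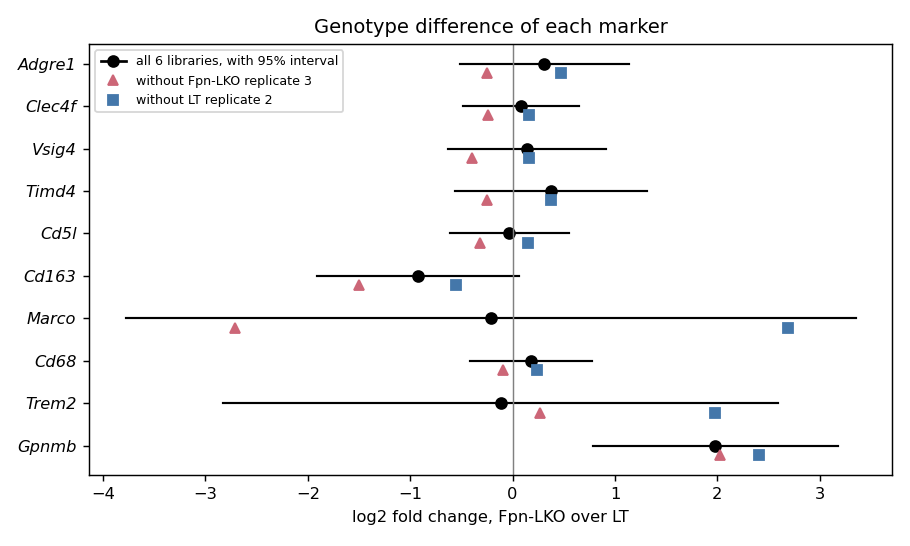
Log2 fold change of Fpn-LKO over LT for each marker, with black points and lines for the value and 95% interval over all 6 libraries, red triangles for the value without Fpn-LKO replicate 3 and blue squares for the value without LT replicate 2. The Gpnmb interval, from 0.78 to 3.18, is the only one that does not reach 0, and the 8 triangles other than those of Gpnmb and Trem2 are below 0.

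The markers fell into transcripts that varied together and others that did not. As a description over 6 libraries, which share depth and composition, the 10 pairs among Adgre1, Clec4f, Vsig4, Timd4 and Cd5l had Pearson correlations of log2 CPM from 0.76 to 0.94, with a median of 0.92. The high value of Fpn-LKO replicate 3 enters every one of these pairs. Cd68 correlated with the same 5 transcripts between 0.74 and 0.91, and Marco followed Cd5l most closely (0.94), although its range was far wider. Cd163 correlated with the 5 transcripts between 0.37 and 0.74, Trem2 between -0.38 and 0.14 and Gpnmb between 0.017 and 0.24, and Cd163 and Gpnmb had the lowest value of all 45 pairs, -0.49. Of the promoters printed above for 4 of these transcripts, those of Vsig4 and Cd5l hold GAGGAA and those of Clec4f and Timd4 do not, and the promoters of Cd68 and Marco also hold it.

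**Figure D3:**
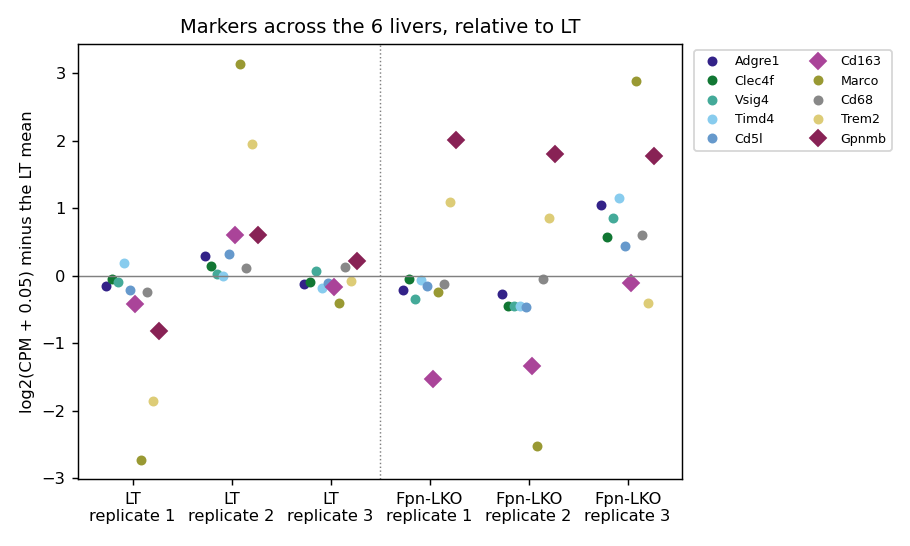
Log2(CPM + 0.05) of each marker minus its LT mean, by library, with Cd163 and Gpnmb drawn as diamonds. In Fpn-LKO replicate 3 most markers lie above 0 while Cd163 lies near 0, and in all 3 Fpn-LKO libraries Gpnmb lies well above 0.

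The mean of the markers' standardised log2 CPM was -0.65, 0.53 and -0.19 in LT and -0.27, -0.66 and 1.23 in Fpn-LKO. Of the 12567 genes with a mean of at least 1 CPM, 82 had a Pearson correlation above 0.9 with this profile over the 6 libraries. The 10 most alike were Pld4 (0.991), Slfn9 (0.982), 1500026H17Rik (0.978), Litaf (0.976), Slc11a1 (0.971), Lrif1 (0.966), Dnm3os, Piezo2 and Tchp (0.965 each) and Kcna2 (0.964). Slc11a1 encodes NRAMP1, the iron and manganese transporter of macrophage phagosomes. General macrophage genes were also close to the profile, among them C1qc (0.93) and C1qb (0.92), which encode complement C1q, Csf1r (0.92), the receptor for the macrophage growth factor, and the Kupffer cell transcription factor Spic (0.93). Ptprc, the leukocyte antigen CD45, had 0.83.

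Some general leukocyte and macrophage transcripts were also highest in Fpn-LKO replicate 3. Ptprc had 19.5, 21.3 and 14.2 CPM in LT livers against 20.4, 11.7 and 36.0 CPM in Fpn-LKO, and Csf1r had 38.1, 45.6 and 39.8 CPM in LT livers against 36.1, 38.0 and 71.1 CPM in Fpn-LKO. Lyz2, the lysozyme of macrophages, monocytes and neutrophils, had 39.4, 42.6 and 32.7 CPM in LT livers against 55.8, 34.6 and 100.4 CPM in Fpn-LKO. In each case Fpn-LKO replicate 3 was above the other 5 livers. The log2 fold changes were 0.31 for Ptprc, 0.23 for Csf1r and 0.73 for Lyz2, and none passed the test. The summed B-cell markers were also highest there, 28.4 CPM against 6.73 to 23.0 CPM elsewhere. The summed dendritic cell markers were lowest there, 10.3 CPM against 11.3 to 17.5 CPM elsewhere. Most of each of those sums was Zbtb46, with 6.31 CPM there against 8.48 to 12.4 CPM elsewhere. The dendritic cell markers Siglech (1.51 CPM) and Batf3 (0.560 CPM) were instead highest there, so the sum gives no direction for the cell type. The summed T and NK cell markers were higher only in LT replicates 2 and 3, at 5.52 and 4.21 CPM. Most of each of these sums was Cd4, with 3.81 and 3.60 CPM against 0.366 CPM in Fpn-LKO replicate 3. The summed neutrophil markers were higher only in Fpn-LKO replicate 1, 2.58 CPM against 2.39 CPM in Fpn-LKO replicate 3.

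Set against these transcripts, Cd163 took a lower level in every Fpn-LKO liver. The ratio was chosen after the values were seen and is given as a description. Cd163 stood at 78.2%, 146% and 128% of the CPM of Ptprc in LT and at 34.6%, 69.1% and 52.6% in Fpn-LKO. The groups did not overlap, and the mean log2 ratio was 0.18 ± 0.47 in LT and -1.0 ± 0.50 in Fpn-LKO (SD, n = 3 each), a difference of -1.18. Against Csf1r the log2 ratios were -1.32, -0.55 and -1.13 in LT and -2.36, -2.23 and -1.91 in Fpn-LKO, a difference of -1.16. Against Clec4f they were -2.77, -1.93 and -2.48 in LT and -3.89, -3.28 and -3.07 in Fpn-LKO, a difference of -1.02. Neither pair of groups overlapped. Of all genes, 1.82% were lower without overlap in Fpn-LKO relative to Ptprc, 4.06% relative to Csf1r and 2.00% relative to Clec4f, and 0.567%, 0.851% and 1.60% were higher. Relative to Ptprc, Cd163 was the only one of the 10 markers that was lower without overlap and Gpnmb the only one that was higher, and the groups of the other 8 overlapped.

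**Figure D4:**
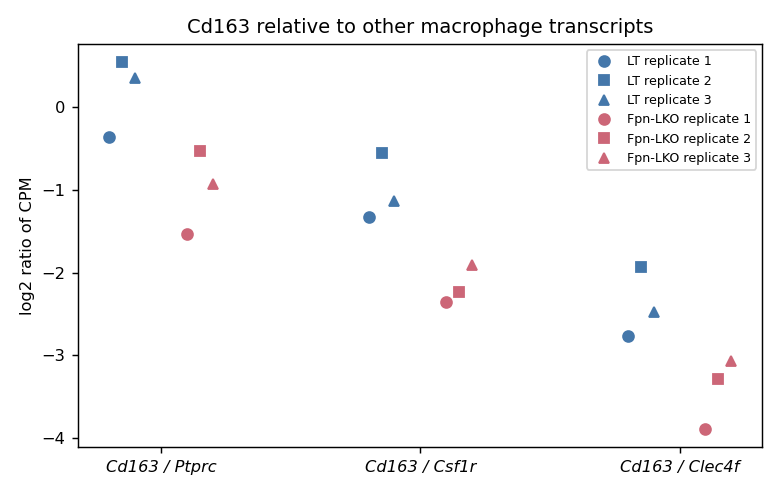
Log2 ratio of the CPM of Cd163 to that of Ptprc, Csf1r and Clec4f in LT (blue) and Fpn-LKO (red) livers, with 1 point per library and a symbol for each replicate. The red points lie below the blue ones for each of the references, with group means that differ by -1.18, -1.16 and -1.02.

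On the TPM scale, which divides by transcript length, resident Kupffer cell products dominated the list. The mean level over the 6 libraries was 63.9 ± 14.8 TPM for Cd5l and 60.4 ± 14.6 TPM for Clec4f (SD, n = 6), with Cd5l above Clec4f in 4 of 6 livers. Vsig4 followed with 23.5 TPM and Adgre1 with 13.3 TPM, each below its predecessor in 6 of 6 livers. Marco (6.20 ± 8.23 TPM), Cd163 (4.78 TPM) and Cd68 (4.67 TPM) came next, and Marco exceeded Cd163 in 2 livers. Cd163 was above Cd68 in all 3 LT livers, with means of 6.12 and 4.22 TPM, and below it in all 3 Fpn-LKO livers, with means of 3.44 and 5.12 TPM. This pair was picked after the values were seen and is given as a description. In LT replicate 3 the levels were close, 4.71 and 4.21 TPM. Timd4 was at 3.52 TPM, below Cd68 in 6 of 6 livers. Trem2 (0.270 TPM) and Gpnmb (0.167 TPM) were an order of magnitude below the rest, and Trem2 was above Gpnmb in 4 of 6 livers.

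Other macrophage genes, taken from lists chosen by function, gave no adjusted call either. Of 13 further Kupffer cell identity genes, 6 had a log2 fold change above 0 and 7 below, with a median of -0.010. At an unadjusted p under 0.05, 1 of them was higher in Fpn-LKO and 0 were lower, against 2.62% and 2.19% of all genes. It was Nr1h3, the liver X receptor that maintains Kupffer cell identity, with 76.2, 72.7 and 69.8 CPM in LT livers against 85.1, 85.9 and 86.7 CPM in Fpn-LKO. The groups did not overlap, and the log2 fold change was 0.24 (SE 0.095, unadjusted p = 0.0390 in the edgeR QL test), in a gene that hepatocytes also express. The lectin Fcna was at -0.39 (SE 0.22), with overlapping groups.

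The 15 genes of the lipid-associated macrophage programme had a median log2 fold change of 0.18, 10 above 0 and 5 below. At an unadjusted p under 0.05, 3 were higher in Fpn-LKO and 0 lower, against 2.62% and 2.19% of all genes. The integrin Itgax (CD11c) had 0.402, 0.554 and 0.411 CPM in LT livers against 2.81, 0.493 and 1.16 CPM in Fpn-LKO, with a log2 fold change of 1.70 (SE 0.63) and overlapping groups. The lysosomal proteases Ctsb and Ctsl, which hepatocytes also express, had log2 fold changes of 0.30 (SE 0.12) and 0.40 (SE 0.17), and their groups did not overlap. Each of the 3 had an adjusted p of 0.982 in the edgeR QL test, Benjamini-Hochberg adjusted.

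Of 10 monocyte genes, 7 could be tested, 5 above 0 and 2 below with a median of 0.40, and F13a1, Chil3 and Clec4e were left out for 0 reads in 2 libraries each. Clec4e had 4, 0 and 0 reads in LT and 30, 17 and 14 in Fpn-LKO, without overlap, Chil3 had 0, 10 and 0 against 29, 9 and 21, and F13a1 had 16, 26 and 0 against 65, 0 and 35. Ccr2, the chemokine receptor of recruited monocytes, had 3.60, 2.70 and 1.93 CPM in LT livers against 5.47, 3.04 and 6.14 CPM in Fpn-LKO. Its groups overlapped, and the log2 fold change was 0.83 (SE 0.34, unadjusted p = 0.0428 in the edgeR QL test). Itgam (CD11b) was at 1.32 (SE 0.64) and Plac8 at 0.40 (SE 0.20). Of 17 pan-macrophage genes, 12 were above 0 and 5 below with a median of 0.22, beside 49.4% of all genes above 0. At an unadjusted p under 0.05, 1 of them was higher and 0 were lower, against 2.62% and 2.19% of all genes. It was the pore-forming protein Mpeg1, with 30.4, 40.1 and 31.3 CPM in LT livers against 43.3, 42.4 and 56.1 CPM in Fpn-LKO and no overlap (log2 fold change 0.48, SE 0.16). The efferocytosis receptor Mertk was at -0.35 (SE 0.22).

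The ligands and receptors of the Kupffer cell niche were balanced, with 8 of 15 above 0, 7 below and a median of 0.0090, and none had an unadjusted p under 0.05. Bmp10, a ligand from stellate cells that acts on the receptor Acvrl1 of Kupffer cells and endothelium, had 2.11, 2.38 and 2.46 CPM in LT livers against 1.43, 1.71 and 1.70 CPM in Fpn-LKO. The groups did not overlap, and the log2 fold change was -0.52 (SE 0.24). Acvrl1 itself was at -0.31 (SE 0.27) and Tgfb1, the growth factor that supports macrophage identity, at 0.44 (SE 0.42).

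Of 9 genes for haemoglobin and iron recycling, 8 were above 0 and 1 below, with a median of 0.12. Ftl1, the ferritin light chain that stores iron in all cells, had 2029, 2055 and 1712 CPM in LT livers against 2928, 2707 and 3266 CPM in Fpn-LKO. The groups did not overlap, and the log2 fold change was 0.62 (SE 0.17, adjusted p = 0.926 in the edgeR QL test, Benjamini-Hochberg adjusted). DESeq2 alone called it, with an adjusted p of 0.00960, and the range over all alternatives was 0.00960 to 1.00. Slc48a1, which carries haem out of the phagolysosome, was at 0.18 (SE 0.14), and Lrp1, which takes up haem bound to haemopexin, at 0.17 (SE 0.22).

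**Figure D5:**
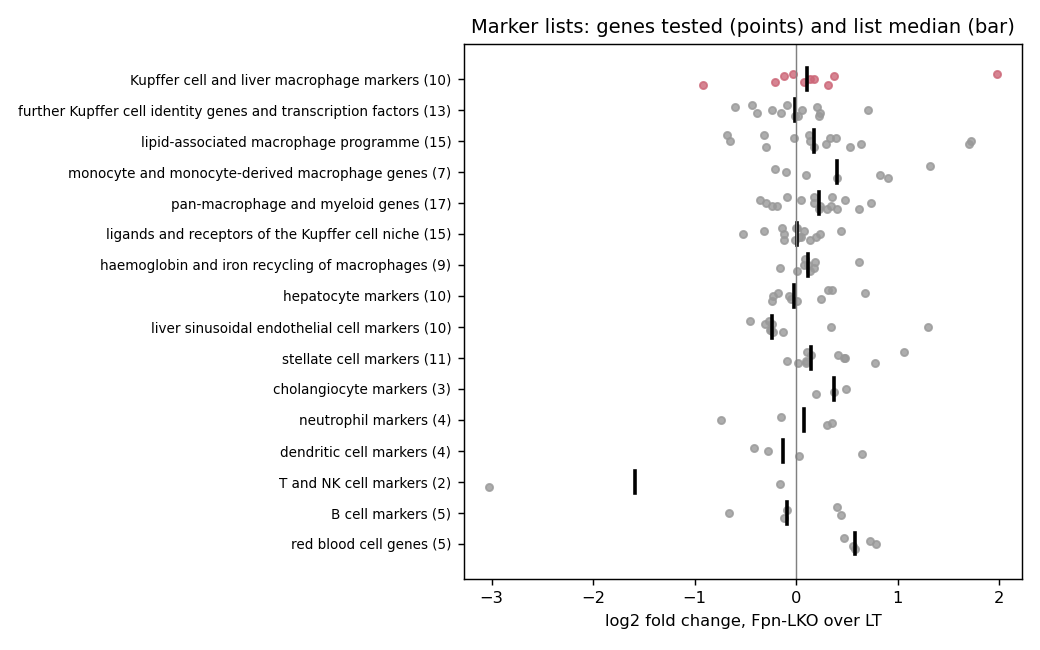
Log2 fold change of Fpn-LKO over LT for the tested genes of each marker list (points, with their number in parentheses) and the list median (bars). The medians of the macrophage lists lie between -0.010 and 0.40, and the 10 markers described here are drawn in red.

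Markers of the other liver cell types were measured in the same libraries. The 10 hepatocyte markers summed to between 85631 and 103902 CPM in LT livers against between 87083 and 95070 CPM in Fpn-LKO, and Alb, the defining marker, had a log2 fold change of 0.013. The 10 sinusoidal endothelial markers summed to 373 to 452 CPM in LT livers against 342 to 364 CPM in Fpn-LKO, and these sums did not overlap. Of the 10 genes, 8 were below 0 and 2 above, where 49.4% of all genes were above 0. Taken singly, 0 of the 10 had groups without overlap, against 10.6% of all genes. At an unadjusted p under 0.05, 1 gene of that list was higher and 0 were lower, against 2.62% and 2.19% of all genes. It was the hyaluronan receptor Lyve1 (log2 fold change 1.30, SE 0.54, unadjusted p = 0.0446 in the edgeR QL test), and its groups overlapped. The 11 stellate cell markers summed to 504 to 592 CPM in LT livers and 562 to 621 CPM in Fpn-LKO, with 10 genes above 0 and 1 below. The 7 erythroid markers summed to 351 to 943 and 474 to 1244 CPM, and the 5 that could be tested were above 0. At an unadjusted p under 0.05, 1 gene of each of these lists was higher and 0 were lower, beside the same shares of all genes. The 6 cholangiocyte markers summed to 7.41 to 10.2 and 11.0 to 13.1 CPM, without overlap, and most of each sum was Tstd1, with 5.56 to 8.87 CPM in LT and 9.37 to 10.9 CPM in Fpn-LKO. Neutrophil markers reached at most 2.58 CPM in any library, with 3 of the 8 at 0 in all 6, and Cd3d and Cd3e, which define T cells, had 0 reads in at least 4 libraries each. The part of these cells in the differences of the macrophage markers was not tested.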

How the data were processed

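RNA was extracted from 6 livers, 1 library per mouse. The labels name a stranded mRNA kit, whereas the study's methods describe total RNA after removal of ribosomal RNA, and this was not settled here. Reads were mapped by the authors to mm10, and they deposited counts per RefSeq gene from StringTie, without normalization, together with FPKM and TPM, which the authors scaled to transcript length and library size. The submitters' processing notes list bcl2fastq 2.20.0, FastQC 0.11.7, HISAT2 2.1.0, Bowtie2 2.3.4.1 and StringTie 2.1.3b. StringTie derives counts from coverage, so they are estimates of reads. The FPKM values were not used.

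As in the study, genes were dropped when more than 1 library had 0 reads. Counts were scaled by TMM and tested with the quasi-likelihood test of edgeR 4.0.16 (R 4.3.3), without robust estimation, over all 6 libraries. The study's methods name exactTest, which was run as an alternative. Benjamini-Hochberg adjustment ran over the 17274 genes tested, with a threshold of 0.05, and the common biological coefficient of variation was 0.275. The QL p-values set the genotype difference against the spread between these 6 mice, estimated with information shared over all genes tested. Log2 CPM for correlations used a prior count of 2, and levels of different genes were compared in the deposited TPM. As alternatives, DESeq2 1.42.0, exactTest, RLE size factors, no filter, filterByExpr, a block for the replicate number and each library left out in turn were run. Further alternatives were limma 3.58.1 on log2(TPM + 1), with and without a minimum mean of 1 TPM, and on log2(TPM + 0.1) with it. The tests were tried on simulated data. No libraries were duplicates.

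The markers, the other gene lists and the tests were chosen with earlier results of these data known. The text names all 10 markers, Slc40a1, Ptprc, Csf1r and Lyz2, up to 3 genes with the smallest unadjusted p from each macrophage list, at most 1 such gene and the defining marker of each other cell type, and the 10 genes most like the markers' mean profile. Other genes correlated with that profile, and F13a1, Chil3, Clec4e, Cd3e, Zbtb46 and Batf3, were named after their values were seen. A gene that this rule takes is not reported here. Coordinates are from the RefSeq annotation of GRCm38.p6.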

Additional observations from a re-analysis of the deposited data

How the results depend on the processing

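No marker reached an adjusted p under 0.05 in any of the 15 alternatives, and the median log2 fold change of the markers lay between -0.25 and 0.32. Over all genes the count of adjusted calls, 4, was 72 by DESeq2, 63 by exactTest, 7 by limma on log2(TPM + 0.1) and 0 to 6 with a library left out, being 0 without LT replicate 2, 1 without LT replicate 1, LT replicate 3 or Fpn-LKO replicate 2 and 6 without Fpn-LKO replicate 3. Markers with an unadjusted p under 0.05 numbered 2 by DESeq2, 2 by exactTest, 0 by limma on log2(TPM + 1) and on log2(TPM + 0.1), where Trem2 and Gpnmb fell under the minimum of 1 TPM, and 1 to 3 with a library left out. The cause of the differences between tools was not tested.

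With the replicate number as a block, adjusted calls over all genes were 0 and markers with an unadjusted p under 0.05 were 2, Gpnmb and Cd163. The deviations of same-numbered mice correlated at 0.23, 0.0048 and 0.11 over 12577 genes, so the numbers were not taken to pair the mice, and not every library correlated best with its own number. Under the block Marco was at 1.02 and Trem2 at 0.47.

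Of 40 genes that the naming rule took and the fit tested, 29 kept their direction throughout, 8 turned only when a library was left out and 3 also otherwise. Left out 1 library at a time, the log2 fold change ranged from -0.25 to 0.54 for Adgre1, -0.24 to 0.29 for Clec4f, -0.40 to 0.37 for Vsig4, -0.25 to 0.66 for Timd4, -0.32 to 0.15 for Cd5l, -2.71 to 2.69 for Marco, -0.091 to 0.31 for Cd68 and -0.71 to 1.98 for Trem2. It ranged from -0.11 to 0.14 for Slc40a1, -0.19 to 0.62 for Ptprc and -0.15 to 0.41 for Csf1r. By limma on log2(TPM + 1), with and without the filter, Cd5l was at 0.030 and Marco at 0.025, and on log2(TPM + 0.1) they were at 0.030 and 0.11, while Trem2 without the filter was at 0.015. TPM moved the median over all genes to 0.083 and 0.097 for these pseudocounts. Gpnmb stayed above 0, from 0.27 on log2(TPM + 1) to 2.41, with adjusted p from 0.0628 by exactTest to 1.00 over edgeR, DESeq2 and limma, and Cd163 stayed between -1.50 and -0.55. The difference in the log2 ratio of Cd163 to Ptprc, whose alternatives were chosen after seeing the data, stayed between -1.45 and -0.91.

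At 3 mice per group and a biological coefficient of variation of 0.275, the intervals of single markers span about 1 log2 unit or more, and Trem2 and Gpnmb rest on at most 42 reads in a library.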
